A study of Homo sapiens with 15 samples.

Results

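Control MOLM-13 cells were compared with control U937 cells, both human acute myeloid leukaemia (AML) lines carrying the empty pLKO vector. The members were the 3 libraries titled pLKO_MOLM_13 and the 2 titled pLKO_U937, 5 of the 15 libraries of the series, and they were chosen by title alone. The series was made to ask what loss of the ubiquitin ligase RNF5 does to gene expression in AML, and its other libraries carry a hairpin against RNF5 (shRNF5) or come from the HL-60 line. None of the 5 control libraries carries that hairpin, so the contrast is one of line and not of RNF5. The sample protocol places the harvest at day 7 and the series design at day 5. Library preparation is given as a 3′-end kit in the labels and as a strand-specific poly(A) kit in the methods. Each group is 1 established line, nothing states that its libraries came from separate cultures, and p-values therefore measure only the spread between these libraries. The lines were grown and normalized apart, so a difference of line cannot be told apart from one of culture or of processing by line. In bulk RNA, fewer cells expressing a gene and less RNA per cell cannot be told apart either.

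MOLM-13 is a monocytic AML line known to carry an internal tandem duplication of the receptor tyrosine kinase FLT3 and a fusion of KMT2A with MLLT3. U937 is a promonocytic line known to carry a fusion of PICALM with MLLT10 and widely used to study differentiation into macrophage-like cells. An activated FLT3 receptor signals through STAT5 and the MAP kinases. Cells answer DNA damage by switching on genes of cell cycle arrest, repair and death. Both pathways are read in part from the RNA of their target genes.

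The deposited values are read counts that the authors normalized within each line and rounded, so each library was rescaled here to a sum of 1000000 over unique gene identifiers. A value on this scale, written CPM below, is a share of a library's normalized reads. By the spacing of the rounded values, about 13400000, 15300000 and 9700000 reads were counted in MOLM-13 replicates 1, 2 and 3, and 14000000 and 20500000 in U937 replicates 2 and 3, so that 1 read was worth between 0.0487 and 0.1029 CPM. Of 57820 gene identifiers, 11791 were kept by the authors' filter in both lines and were tested. Libraries of 1 line correlated at r = 0.963 to 0.988 across these genes on the log2 scale, and libraries of different lines at 0.814 to 0.857. Within MOLM-13, replicate 1 differed from replicates 2 and 3 in a way that moved with transcript length (Spearman's rho across genes -0.27 and -0.291), and U937 replicates 2 and 3 differed likewise (0.271), while the difference between the lines did not (-0.027).

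RNF5 itself, on chromosome 6 of GRCh37 from 32146182 to 32148570, stood at 47.9, 39.4 and 41.0 CPM in MOLM-13 and 39.3 and 52.6 in U937. The libraries of the lines overlapped, and the log2 difference of MOLM-13 minus U937 was -0.09 (SE 0.24, adjusted p = 0.768).

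A gene was called at a Benjamini-Hochberg adjusted p under 0.05 in limma and a log2 difference over 1, which is a 2-fold difference. Differences are on the scale of log2(CPM + 1), which understates those of genes with low values. With this rule 1333 genes were higher in MOLM-13 (11.3% of the genes tested) and 2112 were higher in U937 (17.9%), 3445 in all (29.2%). The libraries of the lines did not overlap for 3434 of the called genes, against 64.9% of all tested genes. The median difference of all tested genes was -0.09, and it was 0.04 with scaling to the upper quartile, where 47.6% of the called genes were higher in MOLM-13 instead of 38.7%. No gene called here was called in the opposite direction under any other setting. Beyond 16-fold lay 37 genes higher in MOLM-13 and 60 higher in U937.

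The gene with the largest difference in favour of MOLM-13 was BZRAP1, which encodes a binding protein of the peripheral benzodiazepine receptor. It lies next to MPO on chromosome 17 (GRCh37, 56378589 to 56406156) and stood at 468, 269 and 277 CPM against 2.67 and 1.25 in U937 (log2 difference 6.83, SE 0.30, adjusted p = 3.84e-08). SDCBP, which encodes the scaffold protein syntenin, was at 201, 195 and 228 CPM in MOLM-13 and at 1.70 and 0.749 in U937 (6.59, SE 0.26). LGR4, a receptor for R-spondins in Wnt signalling, was at 233, 301 and 264 against 2.79 and 1.44 (6.45, SE 0.26). Each of these genes was low in both U937 libraries and far above that in every MOLM-13 library. CHD7, a chromatin remodeller (6.01, SE 0.28), FSCN1, which bundles actin (5.94, SE 0.24), and the semaphorin receptor PLXNB2 (5.84, SE 0.27) followed. FLT3, the receptor with the known duplication in MOLM-13, stood at 260, 326 and 387 CPM against 5.89 and 5.06 (5.63, SE 0.23, adjusted p = 2.42e-08). The acid phosphatase ACPP, the zinc finger gene ZNF117, the cytokine TNF, the granule protease PRSS57 and the transcription factor MEF2C lay between 5.52 and 5.31 log2 units higher. TNF had a wide range in MOLM-13, at 115, 50.2 and 92.5 CPM, and was at 1.09 and 0.999 in U937.

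GPNMB, a glycoprotein of lysosomes and melanosomes found in macrophages, was the gene with the largest difference in favour of U937. It was at 1086 and 409 CPM in U937 and at 2.39, 0.852 and 1.77 in MOLM-13 (log2 difference -8.01, SE 0.39, adjusted p = 6.89e-08). ANPEP, the aminopeptidase N known to haematologists as CD13, was at 371 and 386 CPM in U937 and at 1.17, 0.0774 and 0.522 in MOLM-13 (-7.96, SE 0.32), the last of which amount to a few reads. IL2RG, the common gamma chain of several interleukin receptors, was at 207 and 277 against 1.17, 1.39 and 2.97 (-6.45, SE 0.32). The cytokine IL32 stood at -6.42 (SE 0.44) and FAM46C, a poly(A) polymerase gene mutated in myeloma, at -6.35 (SE 0.28). CTSD, the lysosomal protease cathepsin D, reached 3280 and 1641 CPM in U937 and 60.1, 37.5 and 42.1 in MOLM-13 (-5.64, SE 0.29). GPNMB and CTSD were higher in U937 replicate 2 than in replicate 3, a spread far below the difference between the lines. The integrin ITGA6 (-5.14, SE 0.25), the transcription factor ZFHX3 (-5.13, SE 0.31), and FRMD3, CERCAM, C1orf21 and C1orf228 completed the 12 genes.

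**Figure D1:**
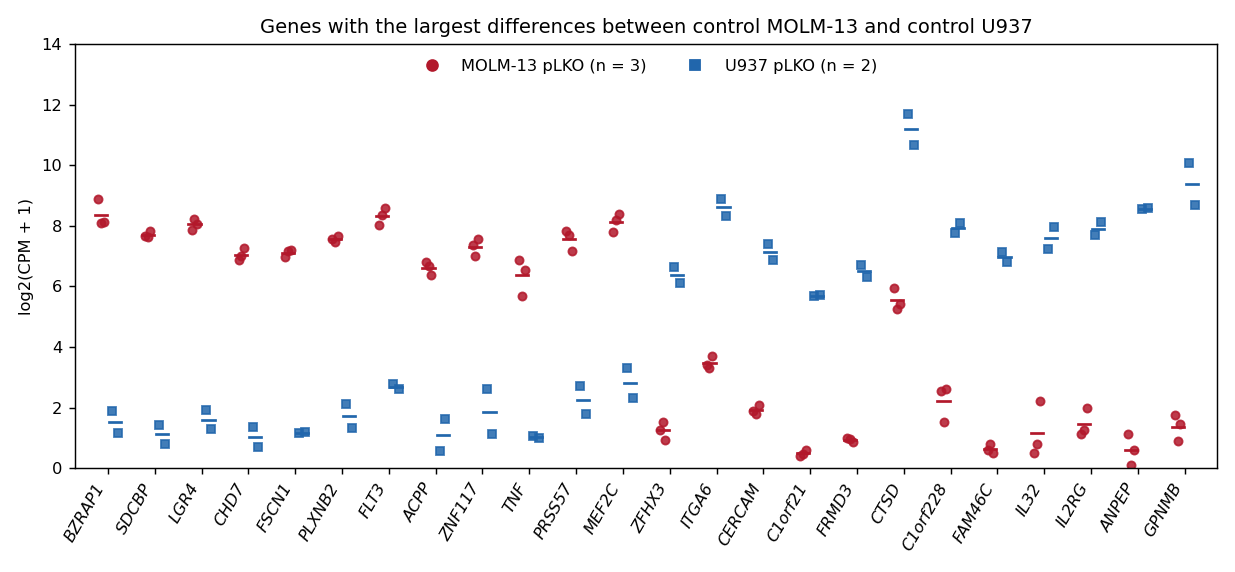
Values of the 12 genes with the largest differences in each direction, as log2(CPM + 1) on the vertical axis, with 1 symbol per control library (circles, MOLM-13; squares, U937) and a bar at the mean of each line. The circles of BZRAP1 to MEF2C lie above the squares and those of ZFHX3 to GPNMB below them. Only genes without overlap between the lines were eligible, so its absence here follows from the choice of genes.

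Genes listed at 0 in every library of a line, with either construct, had failed the authors' filter there, so they have no fold and no test. The lowest kept gene had 0.985 CPM in its second-highest library in MOLM-13 and 0.999 in U937, which puts the limit near 1 CPM. There were 1235 genes kept in MOLM-13 and listed at 0 in U937, of which 27 had a mean of at least 100 CPM in control MOLM-13. There were 1374 genes kept in U937 and listed at 0 in MOLM-13, of which 13 reached that level. Most were low, with a median of 2.17 CPM in MOLM-13 for the first group and 2.54 in U937 for the second. In MOLM-13 the highest were PDLIM1, an adaptor at actin stress fibres, at 715, 681 and 700 CPM, and the receptor tyrosine kinase RET at 446, 392 and 396. The developmental transcription factor DACH1 (338, 348 and 344) and YBX3 (345, 327 and 307) came next. LAPTM4B, REEP3, SDC2, EPB41L2, KCNQ3 and GAS6 had means between 204 and 286 CPM. GAS6, the ligand of the receptor kinase AXL, was itself accompanied by AXL, at a mean of 13.1 CPM and listed at 0 in U937. In U937 the highest was CLEC2B, a C-type lectin that binds the natural killer cell receptor NKp80, at 1782 and 1348 CPM. AFF2 (491 and 257), the chloride transporter SLC26A9 (365 and 292) and the non-coding transcript AC091814.2 (283 and 180) followed. NHLRC3, HS3ST2, GPRIN3, RAB27B, TMEM163 and WWC3 had means between 113 and 149 CPM.

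CDKN1A, PHLDA3 and SESN1 were higher in MOLM-13 among target genes of the DNA damage response. Of 32 tested members of the list, 13 were higher in MOLM-13 (40.6%, against 11.3% of all genes), 2 were higher in U937 (6.25%, against 17.9%) and 17 were not called, and the median difference was 0.66 against -0.09. Without U937 replicate 2 these counts were 11 and 1, and without U937 replicate 3 they were 14 and 3. CDKN1A, the cyclin-dependent kinase inhibitor p21, was at 183, 173 and 277 CPM against 12.2 and 7.18 (4.32, SE 0.28, adjusted p = 5.56e-07). MDM2 was at 429, 410 and 389 against 75.9 and 68.5 (2.49, SE 0.19). None of the values of these genes overlapped between the lines. PHLDA3, a repressor of AKT signalling, showed a log2 difference of 3.76 (SE 0.26), with 31.5, 34.7 and 35.5 CPM in MOLM-13 and 1.64 and 1.5 in U937. SESN1, a stress sensor upstream of mTORC1, and ZMAT3, an RNA-binding regulator of splicing, both stood at 2.79 (SE 0.23 and 0.26). TRIM22, also an interferon-stimulated gene, ASCC3, TRIAP1, RRM2B, BTG2, AEN, the TIGAR gene C12orf5 and the death receptor gene FAS made up the rest of the 13. The calls of AEN and FAS ended without U937 replicate 2 (log2 differences 0.92 and 0.95), and that of RRM2B ended without MOLM-13 replicate 2 or 3 or U937 replicate 3 (0.88 to 0.99). PLK2, ACER2 and GDF15 were listed at 0 in U937 and had means of 0.689 to 9.93 CPM in MOLM-13. The 2 members higher in U937 were BBC3, which encodes the BH3-only protein PUMA (10.6, 11.1 and 15 against 50.6 and 18.2, log2 difference -1.27, SE 0.37), and CYFIP2 (-2.83, SE 0.26). The call of BBC3 ended without U937 replicate 2 (-0.55) or MOLM-13 replicate 1 (-1.18). BAX stood at 0.97, short of the limit, and passed it with the other scalings (1.07 and 1.11) and without MOLM-13 replicate 2 (1.14) or U937 replicate 3 (1.12). XPC stood at -0.93, and passed without replicate 3 of MOLM-13 or of U937 (both -1.02).

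**Figure D2:**
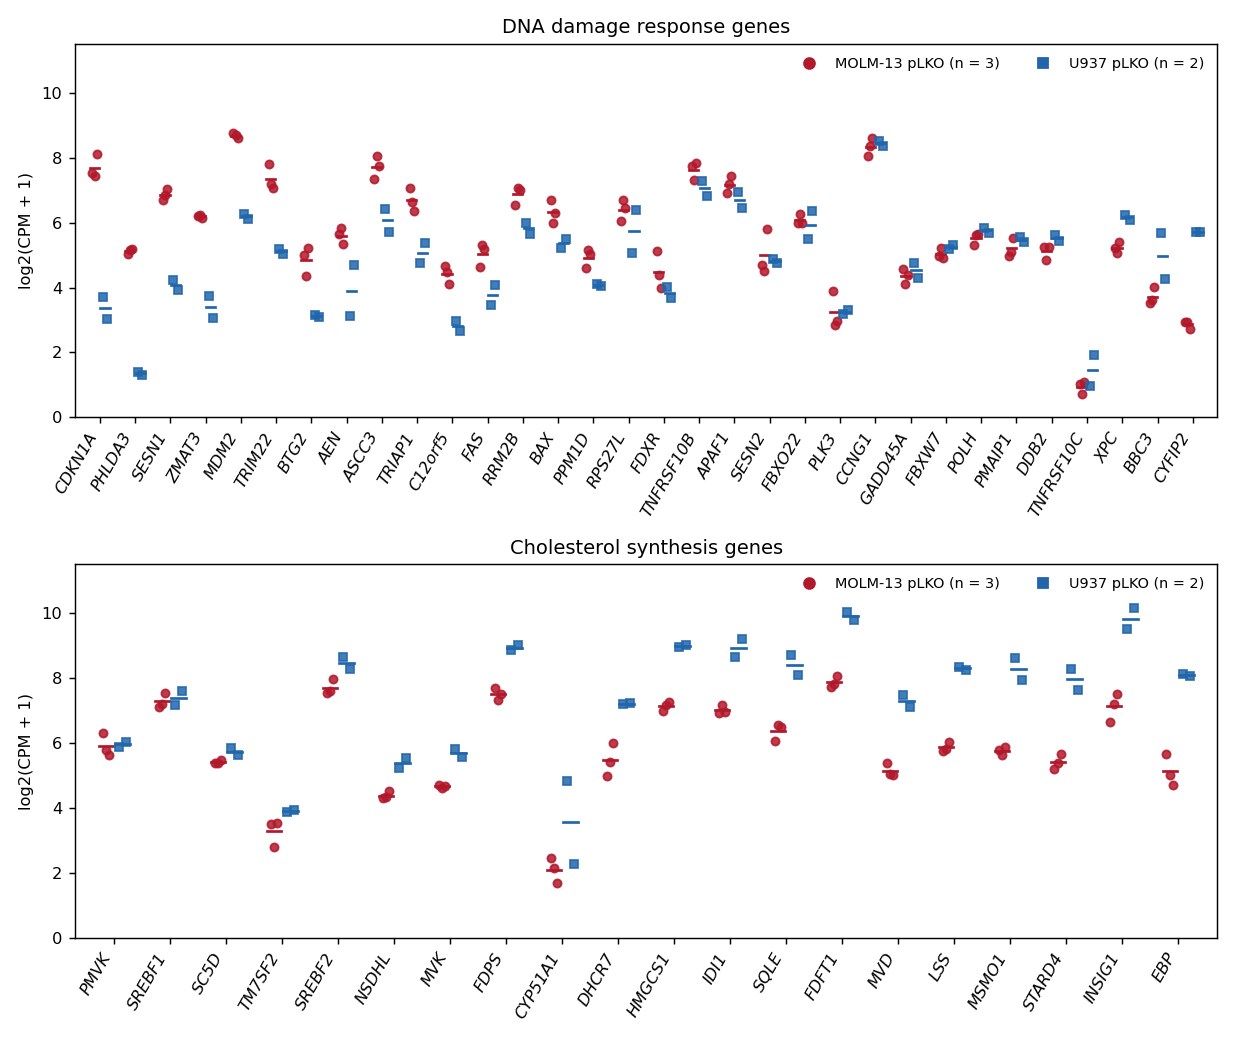
Values of tested DNA damage response genes (top) and of tested cholesterol synthesis genes (bottom) in each control library, as log2(CPM + 1), with circles for MOLM-13, squares for U937 and bars at the means. From CDKN1A to PPM1D every circle lies above every square and at BBC3 and CYFIP2 every circle lies below, whereas in the bottom panel every circle lies below every square from DHCR7 to EBP.

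Genes downstream of STAT5 and the MAP kinases moved in both directions. Of 25 tested members, 10 were higher in MOLM-13 (40%, against 11.3% of all genes) and 5 in U937 (20%, against 17.9%), with a median of 0.91. SOCS2, a feedback inhibitor of cytokine signalling, was at 209, 267 and 309 CPM in MOLM-13 and at 13.9 and 8.49 in U937 (log2 difference 4.45, SE 0.26, adjusted p = 2.44e-07). SPRY4, which restrains the MAP kinase pathway, was at 8.93, 9.95 and 9.16 against 0.364 and 0.437 (2.88, SE 0.29). The D-type cyclins CCND1 (2.64) and CCND2 (2.27), FOSL1 (2.36), SPRED1 (2.08), EGR1 (2.10) and MYC (1.61) were also higher in MOLM-13. SPRY2 (1.03) and SOCS3 (1.02) were just past the limit, and both calls ended when MOLM-13 replicate 3 or U937 replicate 2 was left out (0.75 to 0.87), that of SOCS3 also without MOLM-13 replicate 2 (0.97). The kinase PIM1, also a STAT5 target, went the other way, at 487 and 116 CPM in U937 against 9.44, 14.7 and 29.6 in MOLM-13 (-3.80, SE 0.52). The phosphatase DUSP4 (-3.52, SE 0.39) and the survival gene BCL2L1 (-1.82, SE 0.27) were likewise higher in U937, with PIM3 (-1.11) and DUSP5 (-1.01). PIM3 was not called without U937 replicate 2 (-0.91), nor DUSP5 without MOLM-13 replicate 1 (-0.95) or U937 replicate 3 (-0.85). DUSP6, a phosphatase of ERK, ranged from 27.1 to 84.4 CPM in MOLM-13 and was at 12.3 and 33.8 in U937, so that the lines overlapped and the gene was not called (1.16, adjusted p = 0.0519). It was called without MOLM-13 replicate 1 (1.55), MOLM-13 replicate 2 (1.19) or U937 replicate 3 (1.85).

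Among receptors for cytokines and growth factors, 6 of 30 tested genes were higher in MOLM-13 (20%, against 11.3% of all genes) and 8 in U937 (26.7%, against 17.9%). FLT3 led in MOLM-13, followed by IL3RA, the interleukin-3 receptor alpha chain targeted on leukaemic stem cells as CD123, at 74.6, 54.2 and 67.0 CPM against 2.37 and 0.999 (4.66, SE 0.30). IL7R (2.94), the macrophage growth factor receptor CSF1R (2.08), IL1RAP (2.03) and IL17RA (1.42) were also higher in MOLM-13, the last not without U937 replicate 3 (0.98). On the side of U937, IL2RG was followed by IL18R1 (-2.40) and TGFBR1 (-1.88, at 689 and 440 CPM against 187, 133 and 133). IL10RB, IFNAR2, IGF1R, IL4R and TGFBR2 lay between -1.42 and -1.10. IL4R and TGFBR2 were not called without U937 replicate 2 (-0.56 and -0.74), nor was IL4R without MOLM-13 replicate 2 (-0.99) or TGFBR2 without MOLM-13 replicate 1 (-0.88). KIT, CSF2RA, CSF2RB, CSF3R and both interferon gamma receptor chains were not called, with differences between -0.45 and 0.61.

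Markers of myeloid cells were called in both directions. Of 20 tested monocyte and macrophage markers, 6 were higher in MOLM-13 (30%, against 11.3% of all genes) and 6 in U937 (30%, against 17.9%), with a median of 0.56. The calprotectin genes S100A8 (152, 56.2 and 45.6 against 1.64 and 3.25 CPM) and S100A9 (78.9, 73.9 and 89.9 against 1.88 and 4.43) differed by 4.47 (SE 0.44) and 4.37 (SE 0.30). The chemokine receptors CCR2 (4.16) and CX3CR1 (2.9), CSF1R and FCGR1A (1.81) were higher in MOLM-13 too. In U937 the higher markers were FCER1G, the signalling chain shared by Fc receptors (90.7 and 63.9 against 3.13, 2.67 and 4.74 CPM, -4.12, SE 0.30), the scavenger receptor MARCO (-2.82), the integrin ITGAX or CD11c (-2.72), the nuclear antigen MNDA (-2.51), CD93 (-1.61) and CD36 (-1.06). The call of CD36 ended without MOLM-13 replicate 2 or U937 replicate 3 (-0.89 and -0.88), and with both other scalings (-0.96 and -0.92). LYZ, ITGAM, CD4, CD86 and TYROBP were kept in both lines and were not called, although CD86 and TYROBP passed the limit without MOLM-13 replicate 2 (1.2 and 1.17). CD14 was listed at 0 in U937 and at 1.41, 0.271 and 1.04 CPM in MOLM-13, and FCN1, CD163 and SIGLEC1 were listed at 0 in MOLM-13 with means of at most 13.1 in U937.

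Granule proteins were led by myeloperoxidase. MPO was at 60.3, 42.3 and 55.3 CPM in MOLM-13 and at 2.55 and 2.0 in U937 (4.02, SE 0.27, adjusted p = 7.61e-07). Of 10 tested members 3 were higher in MOLM-13 (30%, against 11.3% of all genes) and 2 in U937 (20%, against 17.9%). PRTN3, proteinase 3, was at 789, 367 and 351 against 99.1 and 221 (1.65), and RNASE2 was called although its libraries overlapped (98.4, 200 and 283 against 27.0 and 122, 1.61). Neither call held without U937 replicate 2 (1.08 and 0.54). SERPINB1, an inhibitor of these proteases, was higher in U937 (-1.58), as was RNASE3 (-1.91). Neutrophil elastase (ELANE, -0.05), AZU1 (0.22) and CTSG (-0.33) were not called.

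Of 10 tested stem and progenitor markers 3 were higher in MOLM-13 (30%, against 11.3% of all genes) and 1 in U937 (10%, against 17.9%). Those in MOLM-13 were FLT3, CD38 (2.06, SE 0.29) and CDK6 (1.02), and LYL1 was higher in U937 (-1.15). The call of CDK6 ended without MOLM-13 replicate 2 (0.81) or U937 replicate 2 (0.90). Of all 24 stem and progenitor markers 3 were listed at 0 only in MOLM-13 and 1 only in U937. A further 10, among them CD34 and PROM1, were listed at 0 in both lines. Of 23 erythroid and megakaryocyte markers 19 were listed at 0 in both lines, which says only that they failed the authors' filter, as CD68, a marker of monocytes, also did. Neither of the 2 tested was called, and NFE2 was at 40.7, 25.7 and 42.4 CPM in MOLM-13 and 20.2 and 30.8 in U937. Of 26 lymphoid markers 19 were listed at 0 in both lines. The B cell factor PAX5 was at 36.2, 45.5 and 47.8 CPM in MOLM-13 and at 9.16 and 12.7 in U937 (1.89), and NKG7, a granule membrane protein of cytotoxic lymphocytes, was at 28.9, 20.3 and 21.4 against 153 and 215 (-2.91). NCAM1, the neural adhesion molecule CD56, was at 162, 153 and 168 CPM in MOLM-13 and listed at 0 in U937. EBF1, CD79A and RAG1 were listed at 0 in MOLM-13, with means of 0.992 to 13 in U937. Of 4 tested dendritic cell markers, FLT3 and the adhesion molecule CADM1 (75.0, 83.4 and 66.1 against 5.46 and 1.25 CPM, 4.31, SE 0.38) were higher in MOLM-13 and the transcription factor TCF4 was higher in U937 (-2.34). They made up 50% and 25% of the 4, against 11.3% and 17.9% of all genes. Of all 16 members 1 was listed at 0 only in MOLM-13, 1 (AXL) only in U937, and 10 in both lines.

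Of 27 tested transcription factors that set myeloid identity, 7 were higher in MOLM-13 (25.9%, against 11.3% of all genes) and 6 in U937 (22.2%, against 17.9%). MEF2C, a factor active with KMT2A fusions, was at 221, 290 and 331 CPM in MOLM-13 and at 8.98 and 3.93 in U937 (5.31, SE 0.30). IRF8, which directs monocyte and dendritic cell fate, was at 839, 584 and 563 against 130 and 170 (2.13, SE 0.23). MYC (1.61), RUNX1 (1.51), IKZF1 (1.47), EGR1 (2.10) and KLF2 (1.41) were higher in MOLM-13 too, KLF2 not without U937 replicate 3 (0.78). CEBPB, a factor of macrophage differentiation, was at 163 and 82.4 CPM in U937 and 21.0, 14.5 and 28.8 in MOLM-13 (-2.44, SE 0.33), and IRF5 (-2.05), KLF6 (-1.94), BCL6 (-1.80), RUNX3 (-1.43) and RUNX2 (-1.28) were on the same side. The call of RUNX2 ended without U937 replicate 2 (-0.66). CEBPD was listed at 0 in U937, with a mean of 26.3 CPM in MOLM-13, and CEBPE was listed at 0 in MOLM-13, with a mean of 20.8 in U937. SPI1, the gene of PU.1, was at 134, 83.5 and 104 against 119 and 71.9, with the lines overlapping (0.18, adjusted p = 0.598), and CEBPA stood at 0.70, or 1.11 and called without U937 replicate 2.

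The homeobox genes of the HOXA cluster and their partners are activated by both KMT2A and PICALM-MLLT10 fusions. Of 16 tested members 2 were higher in MOLM-13 (12.5%, against 11.3% of all genes) and 6 in U937 (37.5%, against 17.9%). MEIS1, the main cofactor, was at 366 and 351 CPM in U937 and at 45.4, 58.1 and 68.7 in MOLM-13 (-2.64, SE 0.22), and HOXA9 was at 397 and 298 against 84.9, 71.6 and 93.7 (-2.04, SE 0.22). HOXA10 (-1.55), HOXA11 (-1.39), HOXA4 (-1.21) and PKNOX1 (-1.16) were also higher in U937. HOXA4 was low throughout, at 8.07 and 2.25 CPM against 0.774 to 2.0, and lost its call when any one of 3 libraries was left out, with -0.47 without U937 replicate 2. MEIS2 (2.31) and PBX3 (1.75) were higher in MOLM-13. HOXA5 (0.06), HOXA3 (-0.19) and HOXA7 (0.79) were not called, HOXA7 passing the limit without U937 replicate 2 (1.08).

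**Figure D3:**
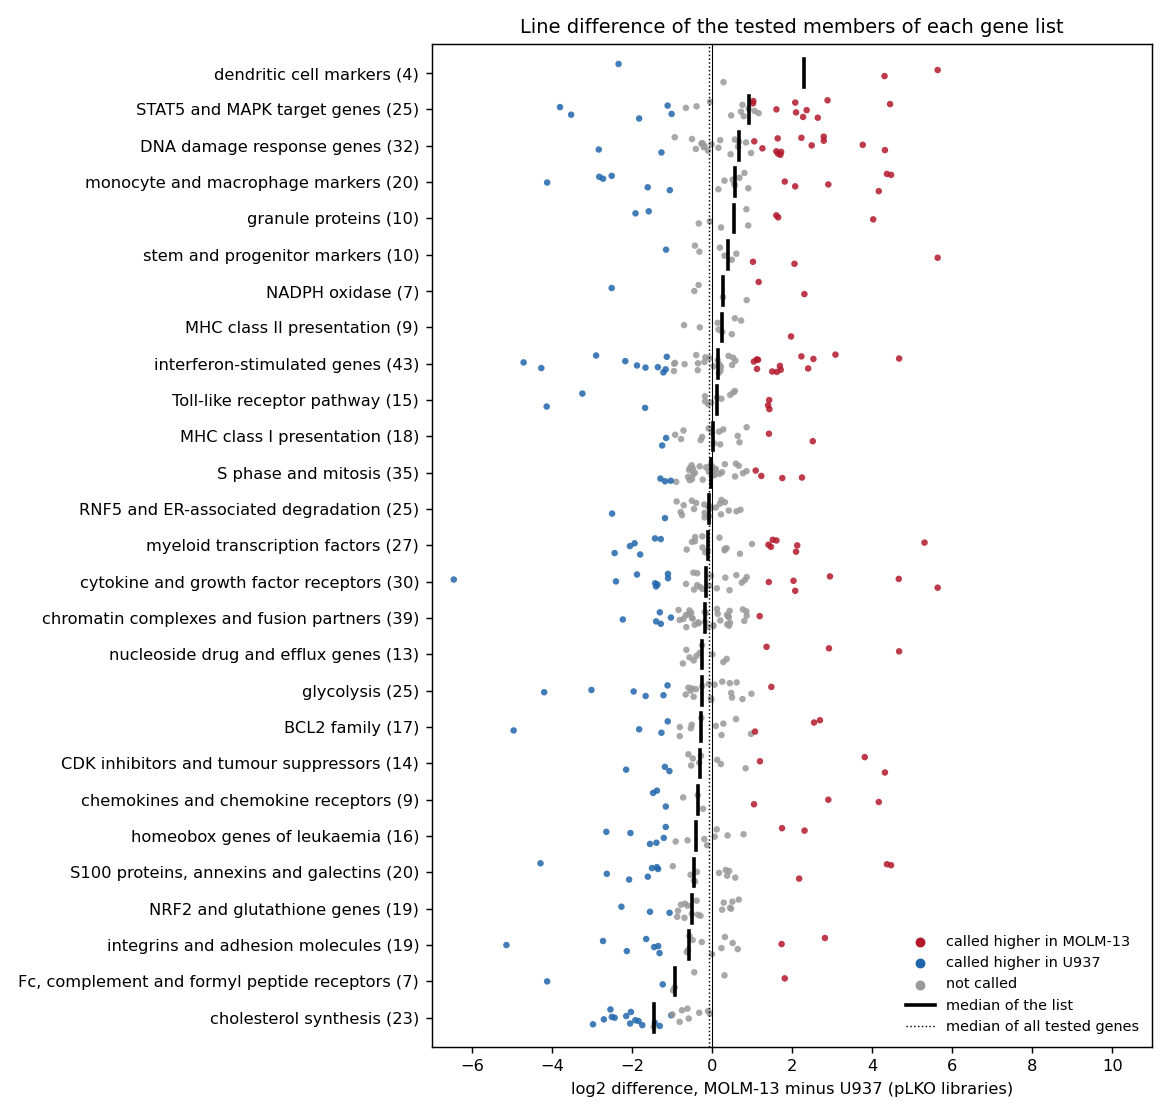
Log2 difference of MOLM-13 minus U937 in the control libraries (horizontal axis) for each tested member of the gene lists with at least 4 tested genes, with the number tested in brackets. Red points were called higher in MOLM-13, blue points higher in U937 and grey points neither, black bars are list medians and the dotted line is the median of all tested genes (-0.09). The cholesterol list has no red point and a median of -1.46, and the DNA damage response list has 13 red and 2 blue points.

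Genes of cholesterol synthesis were higher in U937 wherever they were called. Of 23 tested genes 14 were higher in U937 (60.9%, against 17.9% of all genes) and none in MOLM-13, and the median difference was -1.46. The counts were between 13 and 16 in U937 and 0 in MOLM-13 with each scaling and each library left out. EBP, a sterol isomerase, was at 281 and 268 CPM in U937 and at 49.9, 31.4 and 25 in MOLM-13 (-2.97, SE 0.27, adjusted p = 6.9e-06). INSIG1, which holds the sterol sensor SCAP in the endoplasmic reticulum and is itself a target of SREBP2, was at 732 and 1130 against 100.2, 146 and 182 (-2.70, SE 0.27). STARD4, a cholesterol carrier, was at 311 and 197 against 36.0, 40.4 and 50 (-2.54, SE 0.25), and the demethylating enzyme MSMO1 at 388 and 245 against 54.7, 48.1 and 57.9 (-2.51, SE 0.24). Every library of U937 was above every library of MOLM-13 for these 4 genes. LSS (-2.43), MVD (-2.14), the squalene enzymes FDFT1 (-2.05) and SQLE (-2.03), IDI1 (-1.92), HMGCS1 (-1.84), DHCR7 (-1.74), FDPS (-1.43) and MVK (-1.02) followed. The call of MVK ended without MOLM-13 replicate 2 (-1.0) or U937 replicate 2 (-0.89), and with the other scalings. The regulators SREBF2 (-0.75) and SREBF1 (-0.10) were not called.

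The promoters of these genes are shown because 14 members of the list were called in the same direction. SREBP2 is known to act on them with the CCAAT-binding factor NF-Y, and the CCAAT letters were searched on both strands (ATTGG on the other) in the window from 250 bases before to 50 after the gene start, in RefSeq sequence of GRCh38.p14. Of 19 members with an entry, 15 held them (78.9%), against 35.7% of 27195 promoters of this length. They were present in 10 of 11 members higher in U937 and in 4 of 7 tested members that were not called. A match is a description of the letters and not a binding site. The windows of the 4 called genes with the largest differences that hold the letters are printed below 5′ to 3′ on the strand of the gene, with CCAAT or ATTGG in capitals.
EBP (chrX:48521558-48521857, plus strand): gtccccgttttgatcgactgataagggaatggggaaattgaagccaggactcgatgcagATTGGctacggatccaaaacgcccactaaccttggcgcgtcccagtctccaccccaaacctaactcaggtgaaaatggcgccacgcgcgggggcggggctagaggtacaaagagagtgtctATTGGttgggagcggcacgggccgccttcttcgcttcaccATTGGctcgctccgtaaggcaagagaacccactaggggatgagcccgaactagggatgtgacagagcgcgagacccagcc
INSIG1 (chr7:155297628-155297927, plus strand): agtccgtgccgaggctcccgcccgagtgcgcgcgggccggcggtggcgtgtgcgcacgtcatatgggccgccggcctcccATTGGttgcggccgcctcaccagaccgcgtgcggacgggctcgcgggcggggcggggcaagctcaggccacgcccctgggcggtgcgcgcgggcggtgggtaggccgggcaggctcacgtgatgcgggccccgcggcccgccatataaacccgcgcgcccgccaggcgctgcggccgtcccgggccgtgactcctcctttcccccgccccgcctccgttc
STARD4 (chr5:111512486-111512785, minus strand): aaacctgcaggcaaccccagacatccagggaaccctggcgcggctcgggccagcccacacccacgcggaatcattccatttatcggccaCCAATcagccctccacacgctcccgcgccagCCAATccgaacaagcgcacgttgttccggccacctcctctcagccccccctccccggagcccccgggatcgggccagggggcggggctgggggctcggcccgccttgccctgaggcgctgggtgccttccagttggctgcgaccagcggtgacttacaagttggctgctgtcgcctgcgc
MSMO1 (chr4:165327419-165327718, plus strand): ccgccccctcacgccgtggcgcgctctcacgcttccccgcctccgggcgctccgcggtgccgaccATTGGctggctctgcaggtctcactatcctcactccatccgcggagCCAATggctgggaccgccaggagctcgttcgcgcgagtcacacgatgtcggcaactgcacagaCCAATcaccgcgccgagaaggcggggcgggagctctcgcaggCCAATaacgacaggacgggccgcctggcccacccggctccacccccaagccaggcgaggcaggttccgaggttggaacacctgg
EBP held 3 matches, INSIG1 1, STARD4 2 and MSMO1 4.

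Interferon-stimulated genes were called often and in both directions. Of 43 tested genes 13 were higher in MOLM-13 (30.2%) and 10 in U937 (23.3%), against 11.3% and 17.9% of all genes, and the median was 0.14, or -0.16 without U937 replicate 3. SAMHD1, a nucleotide hydrolase that limits viruses and inactivates cytarabine triphosphate, was at 442, 235 and 310 CPM in MOLM-13 and at 16.1 and 8.18 in U937 (4.67, SE 0.31, adjusted p = 6.79e-07). XAF1, an antagonist of the caspase inhibitor XIAP, was at 107, 105 and 167 against 16.8 and 11.2 (3.08, SE 0.27). SAMD9L (2.53), IFI35 (2.40), TRIM22 (2.23), GBP2 (1.71), IFIT5 (1.69) and CMPK2 (1.62) were also higher in MOLM-13. On the other side, the antiviral GTPase MX2 was at 112 and 107 CPM in U937 and at 1.84, 3.79 and 4.54 in MOLM-13 (-4.71, SE 0.32), and IFI6 was at 52.1 and 31.3 against 0.666, 1.16 and 1.77 (-4.27, SE 0.33). UBE2L6, the conjugating enzyme for ISG15, was at -2.9 and OAS3 at -2.17. The calls of SAMD9 and OAS2, higher in MOLM-13, and of HERC5, IFIT1 and STAT2, higher in U937, ended without U937 replicate 2. Their log2 differences there were 1.03, 0.86, -0.80, -1.11 and -0.80. SAMD9 (0.91) and OAS2 (0.69) also fell short without MOLM-13 replicate 3, and BST2, higher in U937, without U937 replicate 3 (-0.94). With a pseudocount of 5 the list had 8 genes higher in MOLM-13 and 9 in U937. ISG15 (-0.95), MX1 (-0.93), IRF7 (0.18) and IFIT3 (0.03) were not called. ISG15 passed the limit without MOLM-13 replicate 1 (-1.08) or U937 replicate 2 (-1.05), MX1 without MOLM-13 replicate 3 (-1.09) and IRF7 without U937 replicate 2 (1.04).

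The interferon response element holds GAAA repeats, and GAAANNGAA (TTCNNTTTC on the other strand) was found in 18 of 34 of these promoters (52.9%), against 8.3% of all promoters. It was held by 3 of 9 members higher in MOLM-13, 6 of 8 higher in U937 and 6 of 14 that were not called. Windows of 60 bases around the first match are shown for the 2 called genes with the largest differences in each direction that hold it, to set the letters of genes that differ in opposite directions side by side, with matches in capitals and IFIT5 and RSAD2 being higher in MOLM-13.
IFIT5 (chr10:89414499-89414558, plus strand): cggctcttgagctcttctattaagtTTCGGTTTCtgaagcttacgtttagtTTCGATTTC
RSAD2 (chr2:6865781-6865840, plus strand): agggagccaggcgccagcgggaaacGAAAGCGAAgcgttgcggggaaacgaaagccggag
IFI6 (chr1:27672314-27672373, minus strand): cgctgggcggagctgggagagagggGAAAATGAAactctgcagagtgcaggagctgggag
OAS3 (chr12:112938306-112938365, plus strand): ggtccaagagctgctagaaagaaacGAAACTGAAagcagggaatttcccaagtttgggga
RSAD2, the antiviral protein viperin, was at 7.05, 6.93 and 8.83 CPM in MOLM-13 and 2.85 and 2.87 in U937 (1.15), and IFIT5 at 5.56, 6.15 and 6.99 against 1.09 and 1.37.

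Antigen presentation differed in single genes. Of tested class I genes 11.1% were called in each direction, against 11.3% (MOLM-13) and 17.9% (U937) of all genes. Of 18 tested class I genes, the trimming peptidase ERAP2 (58.1, 94.8 and 88.7 against 13.2 and 12.7 CPM, 2.52) and the immunoproteasome subunit PSMB10 (1.42) were higher in MOLM-13. B2M, the invariant light chain, was at 1629 and 2205 CPM in U937 and at 853, 813 and 730 in MOLM-13 (-1.25), and HLA-C was at -1.15. The call of HLA-C ended without MOLM-13 replicate 2 (-0.99) or U937 replicate 2 (-0.75), and HLA genes are close enough in sequence for reads to be split among them. Of 9 tested class II genes only the invariant chain CD74 was called, at 225, 82.6 and 141 CPM in MOLM-13 and 37.4 and 31.8 in U937 (1.97, SE 0.34). That was 11.1% of the 9 higher in MOLM-13 (against 11.3% of all genes) and 0% in U937 (against 17.9%). HLA-DRA, HLA-DQB1, HLA-DMB and HLA-DPA1 were listed at 0 in U937 and had means of 2.10 to 21.3 CPM in MOLM-13.

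Among the BCL2 family, which sets the threshold for apoptosis, 3 of 17 tested genes were higher in MOLM-13 (17.6%, against 11.3% of all genes) and 4 in U937 (23.5%, against 17.9%), shares not far from the background. BCL2A1, an antiapoptotic member and one of the genes the study names, was at 185 and 82.3 CPM in U937 and at 2.9, 2.28 and 4.02 in MOLM-13 (-4.96, SE 0.35, adjusted p = 9.32e-07). BCL2L1, the gene of BCL-XL, was at 73.4 and 45.6 against 16.4, 14.6 and 16.1 (-1.82, SE 0.27). BCL2 itself, the target of venetoclax, was at 73.4, 137 and 146 in MOLM-13 and 51.3 and 55.8 in U937 (1.07), a call that ended without MOLM-13 replicate 2 (0.94) or 3 (0.89). The proapoptotic BIK (41.7, 41.8 and 36.6 against 5.46 and 6.62, 2.55) and HRK (2.69, at 0 and 0.312 in U937) were higher in MOLM-13, and BBC3 and BMF (-1.11) in U937. The call of BMF ended when any one of 3 libraries was left out, with -0.64 without U937 replicate 2. MCL1 (0.60), BAX (0.97) and BCL2L11 (-0.53) were not called.

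CDKN2A, the gene of p16 and p14ARF on chromosome 9 from 21967751 to 21995300, was at 85.5 and 93.8 CPM in U937 and listed at 0 in MOLM-13. Its neighbour CDKN2B, from 22002902 to 22009304, was at 10.4 and 8.87 in U937 and also listed at 0 in MOLM-13. MTAP, the next gene on the other side, from 21802635 to 21937650, was kept in both lines, at 43.4, 49.4 and 52.2 CPM in MOLM-13 and 54.1 and 89.7 in U937 (-0.52, adjusted p = 0.111). Of 14 tested CDK inhibitors and tumour suppressors 3 were higher in MOLM-13, among them CDKN1A, and 3 in U937. Each count was 21.4% of the list, against 11.3% (MOLM-13) and 17.9% (U937) of all genes. The inhibitors CDKN1C (-2.15), CDKN2D (-1.18) and CDKN1B (-1.07) were higher in U937. CDKN2D was low in both lines, at 8.85, 6.70 and 13.4 against 23.6 and 21.1 CPM, and its call ended without MOLM-13 replicate 2 (-0.97). CDKN1B was not called without MOLM-13 replicate 1 (-0.98) or U937 replicate 2 (-0.91).

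Most subunits of histone deacetylase and Polycomb complexes, the part of the cell that the study connects with RNF5, did not reach the 2-fold limit. Of 39 tested chromatin genes 1 was higher in MOLM-13 (2.56%, against 11.3% of all genes) and 5 in U937 (12.8%, against 17.9%). RBBP4, the histone chaperone that is shared among these complexes, was at 271, 309 and 271 CPM in MOLM-13 and at 378 and 439 in U937 (-0.52, SE 0.20, adjusted p = 0.0475). The libraries did not overlap, but the difference was short of 2-fold. HDAC2 (445, 421 and 424 against 223 and 270, 0.80, SE 0.20) and SAP18 (177, 166 and 161 against 81.5 and 105, 0.86, SE 0.21) were separate in the other direction. SAP18 passed the limit without U937 replicate 3 (1.03). HDAC1 (-0.18) and EZH2 (-0.34) overlapped between the lines. RBBP7, the paralogue of RBBP4, was at 353 and 472 CPM in U937 and at 158, 181 and 155 in MOLM-13 (-1.31, SE 0.21), and HDAC6, a cytoplasmic deacetylase of tubulin, was at 198 and 142 against 43.6, 29.9 and 32.8 (-2.23, SE 0.25). EZH1 (-1.28), HDAC10 (-1.40) and MBD2 (-1.03) were the other 3 higher in U937, HDAC10 not without U937 replicate 2 (-0.99) and MBD2 not without MOLM-13 replicate 1 (-0.88). HDAC9 (48.5, 59.1 and 73.4 CPM) and HDAC4 (55.3, 52.1 and 57.2) were listed at 0 in U937. MLLT10, a partner of the U937 fusion, was higher in MOLM-13 (75.1, 90.4 and 107 against 45.5 and 33.2, 1.19), though not without U937 replicate 3 (0.97), and MLLT3, a partner of the MOLM-13 fusion, stood at 0.86, or 1.05 and called without MOLM-13 replicate 1.

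Of 25 genes of endoplasmic reticulum-associated degradation, the pathway in which RNF5 acts, 23 were not called. The other 2 were higher in U937 (8%, against 17.9% of all genes). EDEM2, which helps to select misfolded glycoproteins, was 1 of them (18.0, 19.6 and 17 against 138 and 83.5 CPM, -2.5, SE 0.26). The median, -0.09, was that of all genes. RNF185, the closest relative of RNF5, stood at 0.09. Of the other genes the study names, the kinase LIMK1 was higher in U937 (46.1 and 42.2 against 22.7, 18.2 and 18.2 CPM, -1.13, SE 0.24), and ANXA1 was not called (-0.43). NCF1, a subunit of the phagocyte oxidase, was at 9.09, 7.59 and 22.6 CPM in MOLM-13 and 1.46 and 1.69 in U937 (2.31, SE 0.40), with the reservation that near-identical copies of this gene share its reads. Of the other oxidase genes NCF4 was higher in U937 (310 and 274 against 69.9, 34.3 and 53.2, -2.51) and RAC2 in MOLM-13 (1.16), while CYBB and CYBA were not called. CYBA (0.86) passed the limit without replicate 3 of MOLM-13 (1.01) or of U937 (1.06).

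In metabolism, PDK1, the kinase that shuts pyruvate out of the mitochondria, was at 796 and 960 CPM in U937 and at 51, 43.0 and 46.7 in MOLM-13 (-4.19, SE 0.20, adjusted p = 6.89e-08). Of 25 tested glycolysis genes 6 were higher in U937 (24%, against 17.9% of all genes), PDK1 with PFKFB4 (-3.01), PDK3 (-1.96), the hexokinases HK1 (-1.66) and HK2 (-1.21) and PKM (-1.11). PGAM1 was higher in MOLM-13 (1.48), but not without U937 replicate 2 (0.85), and PKM was not called without U937 replicate 3 (-0.76). GAPDH (0.50), ENO1 (-0.03) and PGK1 (-0.25) were not called, and the median was -0.25. Among NRF2 and glutathione genes 3 of 19 were higher in U937 (15.8%, against 17.9% of all genes) and none in MOLM-13. The 3 were MGST3 (268 and 245 against 56.0, 53.8 and 48.0, -2.27), GSTP1 (-1.55) and GSR (-1.06). The call of GSR ended without U937 replicate 2 (-0.98) and with both other scalings.

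Of 13 tested genes for uptake, conversion and efflux of nucleoside drugs, SAMHD1, the transporter SLC29A2 (42, 30.4 and 33.7 against 2.31 and 5.87 CPM, 2.92) and TYMP (1.36) were higher in MOLM-13. They made up 23.1% of the 13, against 11.3% of all genes, and none was higher in U937. TYMP was not called without MOLM-13 replicate 1 (0.85) or U937 replicate 3 (1.17). The activating kinase DCK (-0.46) and the main transporter SLC29A1 (-0.64) were not called, SLC29A1 passing the limit without U937 replicate 2 (-1.02). CDA, which deaminates cytarabine, was at 43.3 and 39.0 CPM in U937 and listed at 0 in MOLM-13.

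Of 35 genes of S phase and mitosis 4 were higher in MOLM-13 (11.4%, against 11.3% of all genes) and 3 in U937 (8.57%, against 17.9%). Their median of -0.03 rested on U937 libraries that differed, with summed levels of 5514 CPM in replicate 2 and 8195 in replicate 3, and it was -0.38 without U937 replicate 2 and 0.18 without U937 replicate 3. Both E-type cyclins were higher in MOLM-13, CCNE2 at 79.1, 90.9 and 55.7 against 11.2 and 19.4 CPM (2.25, SE 0.29) and CCNE1 at 1.75. CDC6 (1.23) and MCM5 (1.09) were called too, both not without U937 replicate 2 (0.59 and 0.77). The mitotic genes CCNB2 (-1.29), AURKB (-1.17) and BUB1 (-1.03) were higher in U937, CCNB2 not without U937 replicate 3 (-0.92) and BUB1 not without MOLM-13 replicate 1 (-0.76). MKI67 (0.09) and CDK1 (0.02) were not called.

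Of 19 tested adhesion molecules 7 were higher in U937 (36.8%, against 17.9% of all genes), 2 were higher in MOLM-13 (10.5%, against 11.3%) and 10 were not called. ITGA6, the alpha chain of laminin receptors, was at 476 and 320 CPM in U937 and at 9.67, 8.83 and 12.1 in MOLM-13. The leukocyte integrin chain ITGB2 was at 989 and 570 against 284, 190 and 253 (-1.65), and CD99 (-2.13), ITGAX, ITGA4 (-1.45), ITGA5 (-1.35) and CD47 (-1.31) were on the same side. ITGB7 (14.3, 8.59 and 13.3 against 0.546 and 1.12, 2.82) and ITGAL (1.74) were higher in MOLM-13. Among S100 proteins, annexins and galectins, 7 of 20 were higher in U937 (35%, against 17.9% of all genes), among them S100P (63.5 and 116 against 2.74, 1.90 and 7.19 CPM, -4.29), LGALS12 (-2.63) and ANXA2 (-2.07). S100A8, S100A9 and ANXA4 (2.17) were higher in MOLM-13.

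Innate sensors and chemokines were few and mixed. TLR4, the receptor for lipopolysaccharide, was at 27.9 and 34.8 CPM in U937 and at 1.49, 1.97 and 4.34 in MOLM-13 (-3.24, SE 0.35), and the kinase IRAK2 at 62.1 and 29.1 against 1.57, 0.774 and 2.37 (-4.13, SE 0.38). IRAK1 was higher in U937 (-1.67), whereas the inhibitory IRAK3 (1.40), CASP1 (1.43) and NLRP3 (1.43) were higher in MOLM-13, NLRP3 not without U937 replicate 3 (0.89). TLR1, TLR3, TLR6 and TLR8 were listed at 0 in U937 with means of 0.451 to 11.9 CPM in MOLM-13. Of the 15 tested genes of the pathway 3 were called in each direction (20%, against 11.3% of all genes in MOLM-13 and 17.9% in U937). Of 9 tested chemokines and chemokine receptors 3 were higher in each line (33.3%, against the same 11.3% and 17.9%). CXCR4, the marrow homing receptor, was at 489 and 359 in U937 and 175, 129 and 149 in MOLM-13 (-1.47). Of 7 tested Fc, complement and formyl peptide receptors, FCGR1A was higher in MOLM-13 (14.3%, against 11.3% of all genes). FCER1G and CD55 (-1.23) were higher in U937 (28.6%, against 17.9%). Of all 17 members 5 were listed at 0 only in MOLM-13 and 2 only in U937. CD55 was not called without U937 replicate 2 (-0.97). The complement receptor CR1 was listed at 0 in MOLM-13, with a mean of 29.6 CPM in U937. WT1 was at 45.2, 56.2 and 57.0 CPM in MOLM-13 and listed at 0 in U937, and of the 25 genes in its list, which holds the cancer-testis genes, 23 were listed at 0 in both lines.

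The differences were not spread evenly over the chromosomes. Over all tested genes 11.3% were higher in MOLM-13 and 17.9% in U937, with a median difference of -0.09. On chromosome 15, 34.6% of 399 tested genes were higher in U937 and 4.26% in MOLM-13, with a median difference of -0.63. The X chromosome (360 genes, median -0.62, 34.4% higher in U937), chromosome 20 (312 genes, -0.50, 29.5%) and chromosome 21 (109 genes, -0.40, 27.5%) lay on the same side. In the other direction, 21.9% of 448 genes on chromosome 10 were higher in MOLM-13 (median 0.40), 21.6% of 643 on chromosome 12 (0.37) and 21.4% of 210 on chromosome 13 (0.31). Several named genes lie on these chromosomes, with BCL2A1 and ANPEP on 15, IL2RG, EBP, HDAC6 and RBBP7 on X, CEBPB and EDEM2 on 20, and MDM2 and SOCS2 on 12. Other named genes went against their chromosome. SAMHD1 on chromosome 20 was higher in MOLM-13, OAS3 on chromosome 12 was higher in U937, and CLEC2B on chromosome 12 was listed at 0 in MOLM-13. In the shRNF5 libraries the medians of these 7 chromosomes were -0.64, -0.65, -0.39, -0.49, 0.32, 0.39 and 0.34, in the same order. Copy number was not measured, so its part in these values was not tested.

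**Figure D4:**
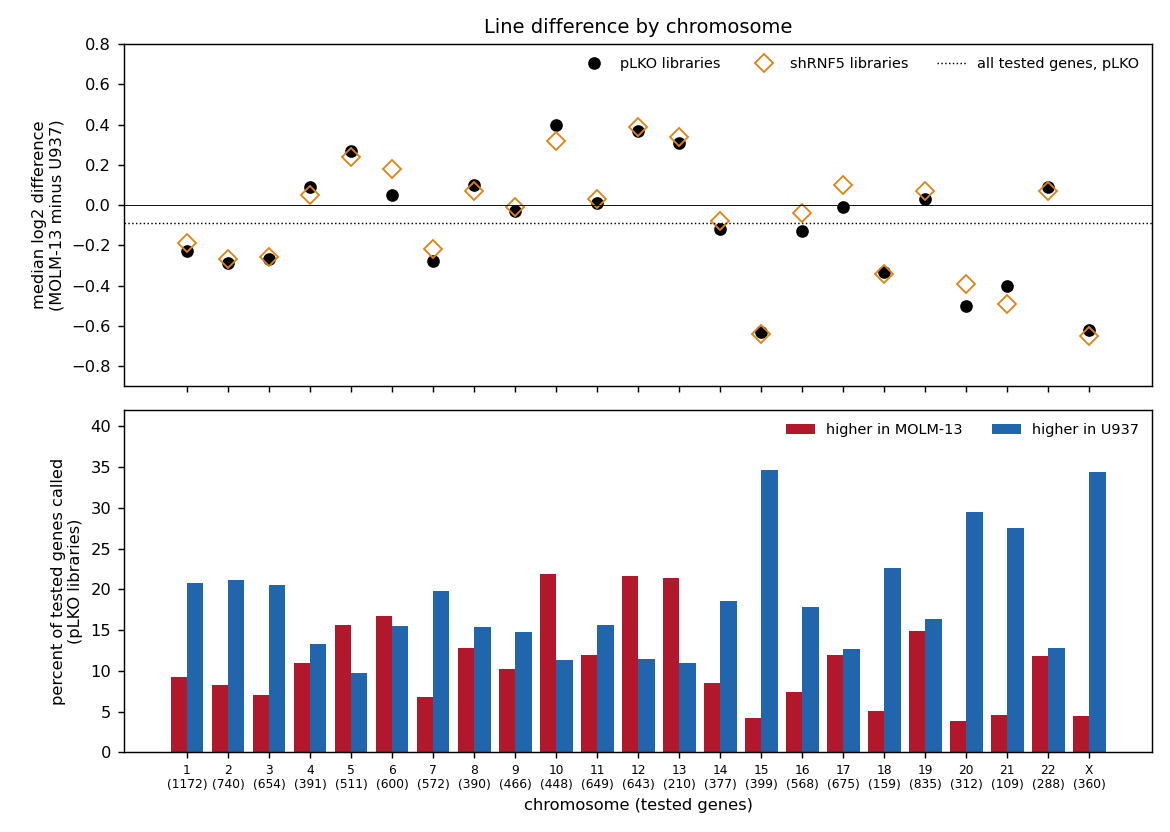
Top, median log2 difference of MOLM-13 minus U937 over the tested genes of each chromosome, with black circles for the pLKO libraries, open diamonds for the shRNF5 libraries and a dotted line at the median of all tested genes with pLKO. Bottom, percent of the tested genes of each chromosome called higher in MOLM-13 (red) or U937 (blue) in the pLKO libraries. Chromosomes 15 and X are at 34.6% and 34.4% in U937, against 17.9% of all tested genes.

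The same lines were sequenced with shRNF5, 2 libraries of each, and these libraries have no sample in common with the controls. RNF5 was low in both lines there (means 3.13 CPM in MOLM-13 and 3.60 in U937). The same test called 1182 genes higher in MOLM-13 (10%) and 1548 higher in U937 (13.1%). Of the genes higher in control MOLM-13, 720 were called in the same direction with shRNF5 (54.0% of the first list and 60.9% of the second), and of those higher in control U937, 1105 were (52.3% and 71.4%). Only 7 genes were called in opposite directions. The sign was the same for 1283 of the 1333 and 1977 of the 2112 genes, and Pearson's r of the differences across genes was 0.809. Genes share libraries and are not independent replicates. Among the DNA damage response genes, CDKN1A (3.26), MDM2 (2.59), PHLDA3 (4.11) and SESN1 (2.91) were also higher in MOLM-13 with shRNF5, and so were FLT3 (6.88), SOCS2 (4.57) and SAMHD1 (4.87). PDK1 (-4.19) and BCL2A1 (-4.82) were higher in U937 there. The median of the DNA damage response list was 0.73 with shRNF5. The cholesterol list had a median of -0.53 there against -1.46 in the controls, with EBP at -2.66, INSIG1 at -1.73, STARD4 at -0.63 and HMGCS1 at -0.37. The S phase and mitosis list had a median of -1.04 there against -0.03.

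**Figure D5:**
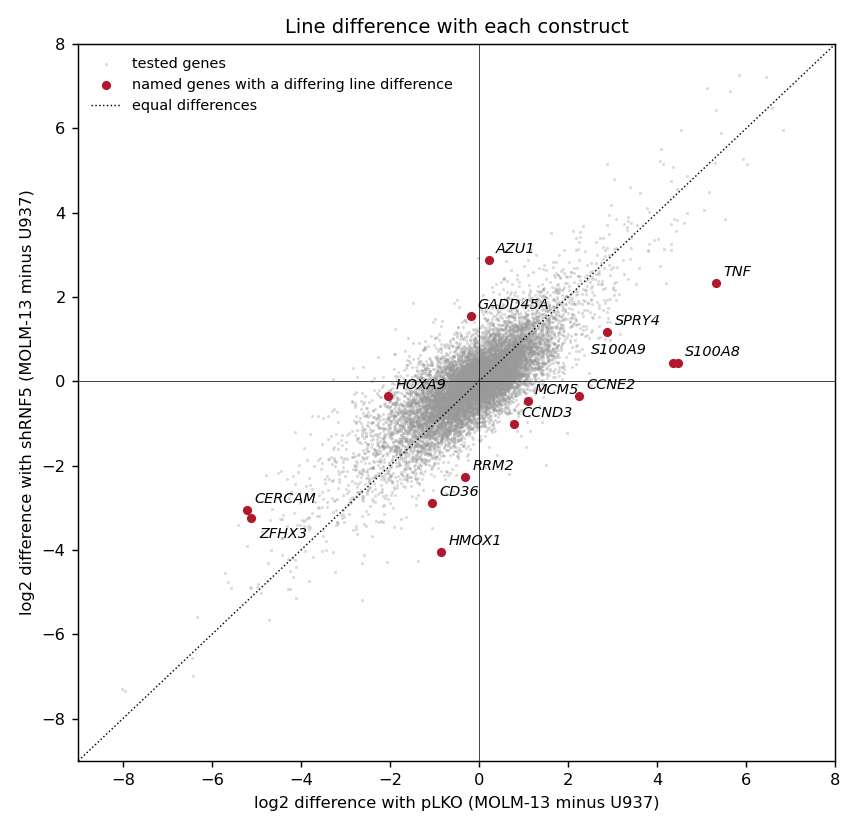
Log2 difference of MOLM-13 minus U937 in the pLKO libraries (horizontal axis) and in the shRNF5 libraries (vertical axis) for each tested gene (grey), with the dotted line marking equal differences. Red points are the named genes whose difference between the lines itself differed between the constructs, among them S100A8 at 4.47 with pLKO and 0.44 with shRNF5 and HMOX1 at -0.85 and -4.06.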

How the data were processed

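RNA sequencing values of the 3 pLKO MOLM-13 and 2 pLKO U937 libraries were used, with the shRNF5 libraries of both lines for a second comparison. The deposited values are scores, read counts that the authors normalized within each line with edgeR through SARTools and rounded, with genes that failed their filter at 0, and not raw counts. Because of that unit limma 3.58.1 was used, although a count model had been planned for raw counts. The authors' columns of fold changes and p-values were not used.

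Each library was rescaled to 1000000 over unique gene identifiers (CPM), and log2(CPM + 1) was fitted in limma with a mean-variance trend and Benjamini-Hochberg adjustment over 11791 genes. Genes were named if they were the study's own genes, the 12 with the largest called difference in each direction, the 10 highest of those listed at 0 in a line, or members of the gene lists. The 12 in each direction had no clone name, no overlap between the lines and a mean of at least 10 CPM in the higher line. The members and lists were chosen with earlier results of these data known. Alternatives were other scalings, pseudocounts, filters, thresholds and fits, a replicate block and leaving out each library. The fit of voom on recovered reads and the correction for transcript length were chosen after seeing the data. Coordinates are of GENCODE v44 lifted to GRCh37 (11544 of 11791 genes matched), and promoters are from RefSeq, GRCh38.p14. No 2 libraries held identical values (0 pairs). On simulated data with 200 changed genes, 96 of 100 were recovered at a log2 difference of 1.5 and 100 of 100 at 2.5. There were 0 false calls in those data. The simulation gave all genes the same dispersion in both lines and left the lowest genes unchanged. Recovery and false calls where the spread differs between genes or libraries were not tested. The control libraries had 3445 called genes, and the share of false calls among them was not tested. Read depths were inferred from which whole numbers occur among the deposited values, and on simulated libraries this came within 1% of the true value in 11 of 12 cases, so the depths are approximate. Values of some list members are not reported here, although the counts and medians of their lists include them.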

Additional observations from a re-analysis of the deposited data

Results flagged for a closer look

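For 15 named genes the difference between the lines itself differed between the constructs, by the interaction of line and construct in limma, adjusted over all tested genes, of which 81 passed an adjusted p of 0.05. Each value is the log2 difference of MOLM-13 minus U937 with pLKO minus that with shRNF5. S100A8 (4.03, from 4.47 with pLKO and 0.44 with shRNF5, adjusted p = 0.0447) and S100A9 (3.94, from 4.37 and 0.43, adjusted p = 0.00813), the subunits of calprotectin, were apart in the controls and close with shRNF5. TNF stood at 3.0 (5.33 and 2.33), CCNE2 at 2.59 (2.25 and -0.35) and SPRY4 at 1.71 (2.88 and 1.18). HMOX1, a haem-degrading enzyme, stood at 3.21 (-0.85 and -4.06). The cell cycle genes RRM2 (1.96, from -0.31 and -2.27), CCND3 (1.8, from 0.79 and -1.01) and MCM5 (1.56, from 1.09 and -0.47) and the scavenger receptor CD36 (1.83, from -1.06 and -2.88) had positive values as well. AZU1 stood at -2.65 (0.22 and 2.87), CERCAM at -2.15 (-5.20 and -3.06), ZFHX3 at -1.88 (-5.13 and -3.25), GADD45A at -1.73 (-0.19 and 1.54) and HOXA9 at -1.69 (-2.04 and -0.35). The adjusted p of the 13 genes other than S100A8 and S100A9 lay between 0.0379 and 0.0494.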

How the results depend on the processing

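Against 1333 genes higher in MOLM-13 and 2112 higher in U937, the counts were 2744 and 3602 at an adjusted p of 0.1 and a log2 difference of 0.4, and 2285 and 3278 with genes listed at 0 in a line included. With shRNF5 (1182 and 1548) these were 2925 and 3548, and 2203 and 2529. Of the genes listed at 0 in 1 line, 285 (U937) and 235 (MOLM-13) had a mean of at least 10 CPM in the other. Other settings gave 962 to 1644 and 1605 to 2243, the lowest with a pseudocount of 5. The share of called genes higher in MOLM-13 was 38.7%, against 45.3% with median-of-ratios scaling, 47.6% with upper quartile scaling and 48.7% with a correction for transcript length. Leaving out each library gave 1140 to 1751 genes higher in MOLM-13 and 2016 to 2290 higher in U937, with 1140 and 2035 without U937 replicate 2 and 1751 and 2290 without U937 replicate 3, where the lone library is assumed to vary like those of the other line. With a replicate block over replicates 2 and 3 the counts were 1417 and 2192. The deviations of these replicates correlated at -0.212 between the lines across 11791 genes. Whether libraries of the same number were processed together is not stated and was not tested. No paired analysis was possible with shRNF5 because its groups share only replicate 1 by the sample titles. The file names number the MOLM-13 libraries otherwise, but also leave a single shared number. No named gene changed its direction while called. Calls that single libraries ended are given for genes described in the text, and further list members that are only counted also lost theirs. CD36, CDKN1B, DUSP5, MBD2, BUB1, MVK and GSR lost their calls with both median-of-ratios and upper quartile scaling. BMF, PIM3, IL4R, TGFBR2, HOXA4, STAT2 and PKM lost theirs with upper quartile scaling only. At 9700000 to 20500000 reads, values near 1 CPM rest on few reads, and differences of genes at that level are uncertain.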

Other observations

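Zinc finger genes named ZNF, most of which encode repressors of transposable elements and of other genes, were described after their values were seen and were given no test. Of 306 tested ZNF genes, 73 were higher in MOLM-13 (23.9%, against 11.4% of protein-coding genes) and 23 in U937 (7.5%, against 18.2%), with a median log2 difference of 0.30. A further 59 of 376 (15.7%) were listed at 0 in U937 and 11 (2.9%) in MOLM-13, against 6.1% and 7.2% of protein-coding genes. On chromosome 19, where many lie in clusters, 49 of 134 tested ZNF genes were higher in MOLM-13 (36.6%) and 4 in U937 (3.0%), with a median of 0.61, and 0.62 in the shRNF5 libraries.

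Some genes listed at 0 were neighbours. On chromosome 12 of GRCh37, from 9905082 to 10084969, the lectin-like receptor genes CD69, KLRF1, CLEC2B, KLRF2 and CLEC2A were all listed at 0 in MOLM-13, with means of 1.87 to 1565 CPM in U937. On chromosome 5, from 178286954 to 178772462, ZNF354B, ZFP2, ZNF879 and ADAMTS2 were listed at 0 in U937, with means of 5.32 to 13.6 CPM in MOLM-13.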
